A study of Mus musculus with 6 samples.

Results

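Aldo-keto reductases are the enzyme superfamily to which the Kvβ subunits of voltage-gated potassium channels belong. The 7 members described here are *Akr1a1*, *Akr1b3*, *Akr1b8*, *Akr1b10*, *Akr1c14*, *Akr1e1* and *Akr7a5*, chosen by gene symbol from the 37979 genes of the table, and each symbol matched 1 gene. Total RNA came from the gastrocnemius (GAS) muscles of untreated young male mice, 20 weeks of age, with 1 library per mouse. There were 3 wildtype (WT) mice and 3 Kvβ2 knockout (KO) mice, which carry the null allele of *Kcnab2* on both chromosomes in every tissue and were bred from heterozygous parents. The libraries of each genotype were numbered 1, 7 and 8. Levels are in FPKM, the number of fragments divided by transcript length and by sequencing depth. Because they are per length, they can be compared between genes, but only roughly, since values also moved with base composition, as given below. Throughout, the 3 values of a genotype follow the order of replicates 1, 7 and 8.

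Aldo-keto reductases bind NADPH in a barrel-shaped fold and pass its hydride to an aldehyde or ketone, which becomes an alcohol. *Akr1b3* encodes aldose reductase, the first enzyme of the polyol pathway, which turns glucose into sorbitol. *Akr1a1* encodes aldehyde reductase, which in mice also reduces glucuronate on the way to ascorbate, and *Akr1e1* encodes a reductase of 1,5-anhydrofructose. *Akr1b8* and *Akr1b10* are close paralogs of aldose reductase, *Akr1c14* encodes a 3-alpha-hydroxysteroid dehydrogenase, and *Akr7a5* encodes a reductase of succinic semialdehyde and of reactive dicarbonyls. Kvβ proteins have the same fold and bind the same cofactor, but sit on the cytoplasmic face of the channel.

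The *Akr1b* paralogs are alike enough in sequence for a reader to ask which gene a fragment came from. The coding sequences of *Akr1b8* and *Akr1b10* were 85.4% identical, whereas the other pairs of members ranged from 58.0% to 72.9%. The stretch below, 60 bases of exon 5 of 10 in each gene (GRCm38, GENCODE vM21), is shown because *Akr1b8* and *Akr1b10* do not differ in it, and it lies within 1 exon of all 3 genes. Capitals mark bases that differ from *Akr1b10*. It is read from the plus strand at chr6:34392062-34392121 for *Akr1b10* and at chr6:34363377-34363436 for *Akr1b8*, and from the minus strand at chr6:34310531-34310590 for *Akr1b3*.
Akr1b10: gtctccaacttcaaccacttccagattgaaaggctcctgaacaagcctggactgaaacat
Akr1b8: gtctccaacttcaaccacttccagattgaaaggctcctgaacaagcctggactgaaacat
Akr1b3: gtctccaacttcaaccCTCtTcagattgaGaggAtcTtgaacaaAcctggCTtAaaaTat
*Akr1b10* and *Akr1b8* were identical over the 60 bases, while *Akr1b3* differed at 12. The longest run shared exactly by any transcripts of *Akr1b8* and *Akr1b10* was 80 bases, shorter than the 150-base reads, and no other pair of members shared a run of more than 24 bases. How the authors' counting divided fragments between the paralogs is not given in the sources used here, so the low values of *Akr1b8* beside *Akr1b10* are uncertain in that respect.

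*Kcnab2*, the targeted gene, was too low for more than a weak check of the labels and did not pass the filter on low FPKM. It measured 0.233, 0.10 and 0.110 FPKM across the WT mice and 0.0151 FPKM in 1 KO mouse, replicate 7, while the other KO libraries list it at 0. By the estimated depth, the WT values correspond to 2.05 to 4.79 fragments per kilobase of transcript. The depth, estimated from the steps of low FPKM values, was 20500000 to 21480000 fragments in the WT and 14900000 to 19340000 in the KO libraries, so every KO library was shallower. Muscle fibre markers summed to 28450 to 40820 FPKM in WT and 44540 to 47810 FPKM in KO libraries, with 0 of the 9 markers at 0 throughout. The other cell types checked were present at lower levels, and the ranges of the 2 genotypes overlapped for each. The adipocyte sum was 3.43 to 17.0 FPKM in WT and 16.6 to 78.5 FPKM in KO libraries, the latter value in KO replicate 7. In whole muscle, fewer cells of a type and less RNA per cell cannot be told apart.

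*Akr1a1* and *Akr1b3* were the most abundant of the 7 genes, and the loss of Kvβ2 came with no detectable difference in either. *Akr1a1* (ENSMUSG00000028692, chromosome 4, 116636510 to 116651680, minus strand) measured 86.5, 87.3 and 94.9 FPKM across the WT mice. The KO mice gave 101.3, 90.3 and 92.1 FPKM. The genotypes overlapped, and the highest library was 1.17 times the lowest, the narrowest spread of the 7 genes. Its log2 fold change, KO minus WT on log2(FPKM + 0.1), was 0.078 (limma, standard error 0.10, 95% confidence interval -0.16 to 0.31, adjusted p = 0.648). *Akr1b3* (ENSMUSG00000001642, chromosome 6, 34302434 to 34317478, minus strand) measured 69.8, 88.0 and 98.7 FPKM across the WT mice and 103.5, 79.7 and 92.5 FPKM across the KO mice. The lowest library was WT and the highest was KO, but the other 4 were interleaved. The log2 fold change of *Akr1b3* was 0.11 (limma, standard error 0.16, interval -0.26 to 0.49, adjusted p = 0.688), less than the range of 0.50 within the WT libraries on the same scale.

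The 2 genes took 74.7% of the summed FPKM of the 7 members in WT replicate 1, 78.2% and 78.4% in WT replicates 7 and 8, and between 74.8% and 80.7% in the KO libraries. They changed places within libraries. *Akr1b3* was above *Akr1a1* in WT replicates 7 and 8 and in KO replicates 1 and 8, and below it in the other 2 libraries, so the order of the 2 most abundant reductases was not fixed by genotype.

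*Akr1b10* was the third most abundant reductase and showed no detectable difference between the genotypes, while its paralog *Akr1b8* was barely expressed. *Akr1b10* (ENSMUSG00000061758, chromosome 6, 34384218 to 34396950, plus strand) measured 36.5, 32.2 and 34.7 FPKM across the WT mice and 31.4, 36.3 and 37.2 FPKM across the KO mice. Both the lowest and the highest library were KO. The log2 fold change of *Akr1b10* was 0.020 (limma, standard error 0.11, interval -0.24 to 0.28, adjusted p = 0.926). *Akr1b8* (ENSMUSG00000029762, chromosome 6, 34354119 to 34368463, plus strand) measured 1.40, 0.929 and 1.14 FPKM across the WT mice and 1.17, 1.49 and 1.24 FPKM across the KO mice. The genotypes overlapped for this gene as well. These values rest on roughly 17 to 28 fragments per library, for which counting error alone is about 24.3% at the lowest. The log2 fold change of *Akr1b8* was 0.17 (limma, standard error 0.22, interval -0.35 to 0.68, adjusted p = 0.661).

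*Akr1c14*, the steroid dehydrogenase, was likewise low and overlapped between the genotypes. The gene (ENSMUSG00000033715, chromosome 13, 4049011 to 4090688, plus strand) measured 2.16, 1.53 and 1.92 FPKM across the WT mice and 1.65, 1.90 and 1.52 FPKM across the KO mice. WT replicate 7 lay with the lower KO libraries. Its log2 fold change was -0.13 (limma, standard error 0.19, interval -0.57 to 0.31, adjusted p = 0.686). A pseudogene on the same strand, *Gm18857*, shares 234 exonic bases with *Akr1c14*, and reads from there cannot be assigned to either by position.

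**Figure D1:**
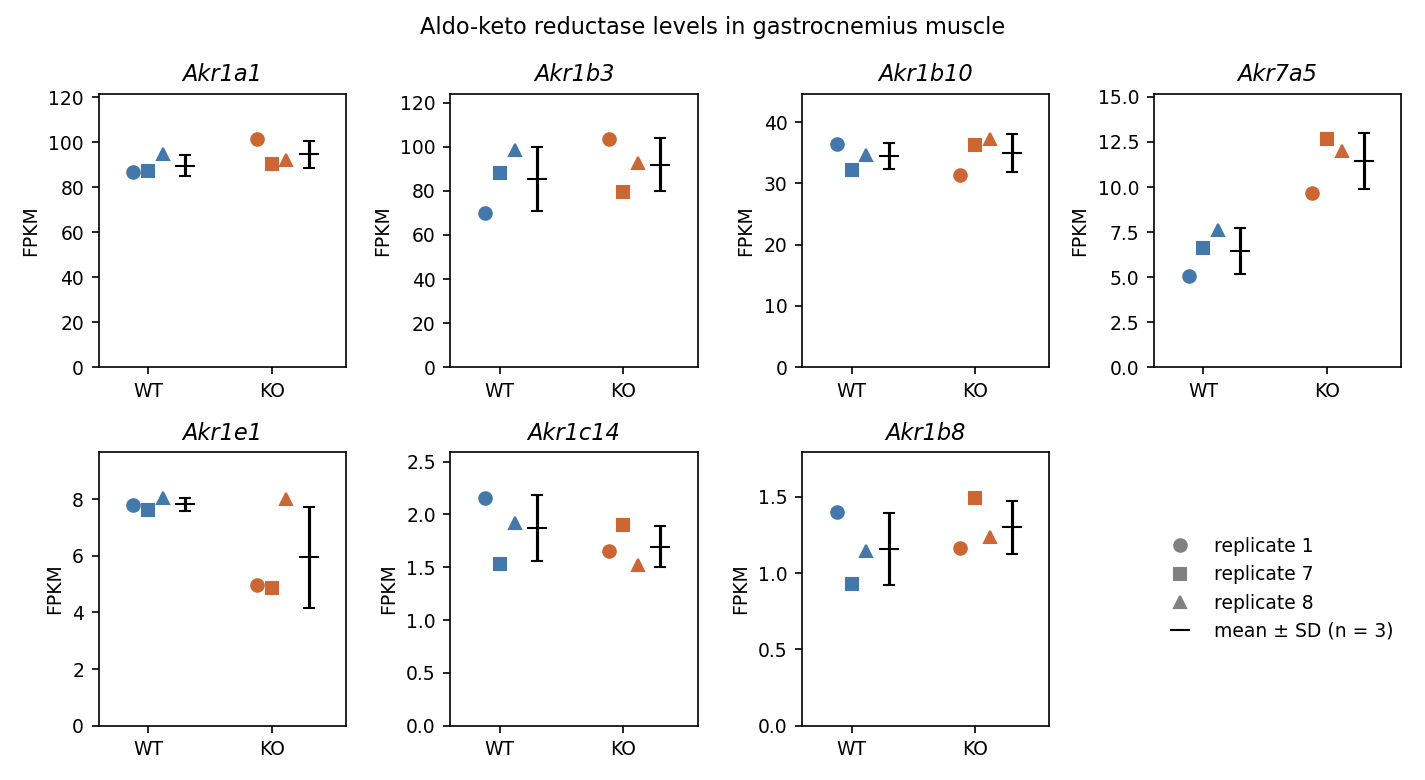
FPKM (y axes, each from 0) of the 7 aldo-keto reductases in the WT (blue) and KO (orange) libraries, with symbols for the replicate numbers and black bars for the mean ± SD (n = 3). *Akr7a5* is the gene whose KO libraries, at 9.68 to 12.7 FPKM, all sit above its WT libraries, at 5.06 to 7.61 FPKM, and KO replicate 8 of *Akr1e1* sits with the WT libraries.

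*Akr7a5* had the largest difference of the 7 genes and was the one whose genotypes did not overlap. It (ENSMUSG00000028743, chromosome 4, 139310744 to 139318426, plus strand) measured 5.06, 6.64 and 7.61 FPKM across the WT mice, a mean of 6.43 ± 1.29 FPKM (SD, n = 3). The KO mice gave 9.68, 12.7 and 12 FPKM, a mean of 11.4 ± 1.57 FPKM (SD, n = 3). Every KO library was above every WT library, and KO was 1.78 times WT by the fitted difference. The log2 fold change was 0.83 (limma, standard error 0.18, interval 0.41 to 1.25, unadjusted p = 0.00209), but the adjusted p over the 12334 genes tested was 0.0750, short of the threshold of 0.05, with all 3 KO libraries higher. An exact permutation test, two-sided, gave p = 0.1, the smallest that 3 against 3 libraries allow. *Akr7a5* was highest in KO replicate 7, the library with the highest adipocyte marker sum. The muscle fibre marker sum was also higher in every KO library than in every WT library. The part of either sum in these values was not tested.

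Separation of this kind was common in the table. Of all tested genes, 34.5% did not overlap between the genotypes and 26.2% had an unadjusted p under 0.05, against 1 of the 7 reductases by each measure. Of all tested genes, 18.3% had every KO library above and 16.2% every KO library below the WT libraries. At an adjusted p under 0.05 the test called 0.324% of the genes, 0.251% as higher and 0.073% as lower in the KO mice, and 0 of the 7 reductases, of which all passed the filter of a mean of at least 0.5 FPKM. The median log2 fold change was 0.078 over the 7 reductases and 0.010 over all genes tested. Under limma's array weights, which give less weight to libraries that fit their group poorly, *Akr7a5* was past the threshold (adjusted p = 0.00793), as were 25.5% of all tested genes. Over the 19 other fits run, its adjusted p ranged from 0.00793 to 0.531, and it was past the threshold in 1 of them.

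*Akr1e1* was lower than in any WT mouse in 2 of the 3 KO mice, and did not pass the test. The gene (ENSMUSG00000045410, chromosome 13, 4590750 to 4609174, minus strand) measured 7.79, 7.61 and 8.06 FPKM across the WT mice, the tightest of the 7 genes within WT, with a coefficient of variation of 2.86%. The KO mice gave 4.97, 4.87 and 8.01 FPKM. KO replicates 1 and 7 lay below all WT libraries, while KO replicate 8 lay among them. The log2 fold change was -0.43 (limma, standard error 0.20, interval -0.89 to 0.035, adjusted p = 0.217), and no call was made under any alternative. The value was -0.66 without KO replicate 8, -0.32 without KO replicate 1, -0.30 without KO replicate 7 and -0.19 under array weights.

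**Figure D2:**
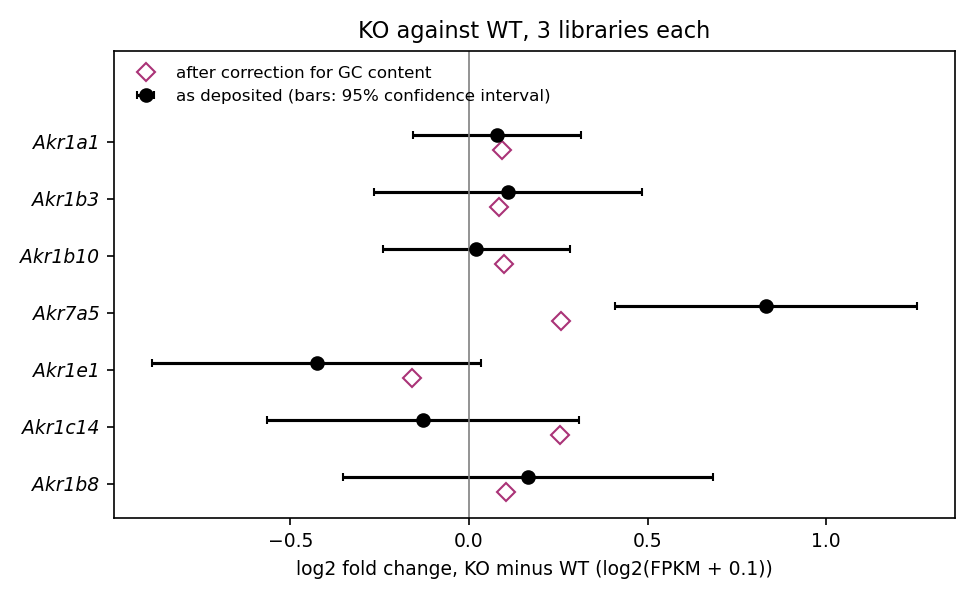
Log2 fold change, KO minus WT on log2(FPKM + 0.1) (x axis), of the 7 reductases in order of abundance, as deposited (black circles, bars for the 95% confidence interval, n = 3 per genotype) and after correction for GC content (open diamonds). The interval of *Akr7a5*, 0.41 to 1.25, is the one that leaves out 0, and its value after correction is 0.26.

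The base composition of the transcripts moved with the difference between the genotypes. Across the 11985 tested genes of known GC content, the log2 fold change was higher at higher GC content (Spearman's rho = 0.70, across genes that share the same 6 libraries and are not independent replicates). The median log2 fold change was -0.41 for genes of under 40% GC, -0.28 from 40% to 45%, -0.11 from 45% to 50%, 0.14 from 50% to 55%, 0.45 from 55% to 60% and 0.68 above. *Akr7a5* has the highest GC content of the 7 reductases, 59.0%, and *Akr1c14* and *Akr1e1* the lowest, 39.2% and 43.7%. The other 4 lie between 48.0% and 51.2%, and their log2 fold changes lie between 0.020 and 0.17. After each library was corrected for the trend on GC content, the log2 fold change of *Akr7a5* was 0.26 (limma, standard error 0.12, adjusted p = 0.504) and its genotypes overlapped, since WT replicate 8 was then above KO replicate 1. That of *Akr1e1* was -0.16 and that of *Akr1c14* was 0.25, with the sign turned, while those of *Akr1a1*, *Akr1b3*, *Akr1b8* and *Akr1b10* lay between 0.085 and 0.10. Whether this trend arose in the libraries or in the muscle was not tested.

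**Figure D3:**
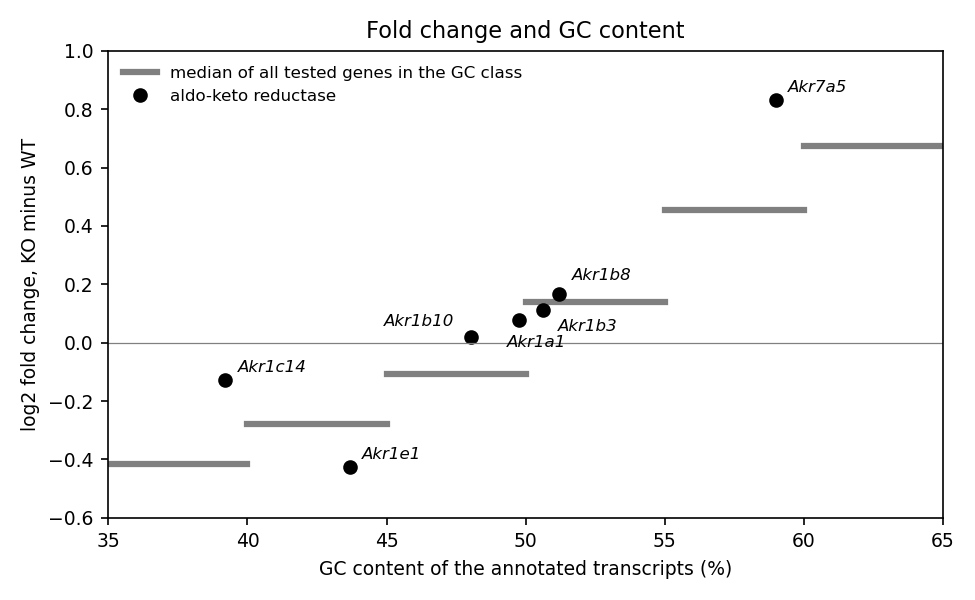
Log2 fold change, KO minus WT (y axis), against the GC content of the annotated transcripts (x axis, percent) for the 7 reductases (points), with grey bars for the median of all tested genes in each class of GC content (the outermost classes, under 40% and from 60%, run on past the plot). *Akr7a5* lies at 59.0% GC and 0.83, in a class whose median is 0.45, and *Akr1e1* at 43.7% and -0.43, in a class whose median is -0.28.

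A ratio of 2 genes within a library does not depend on how libraries are scaled, except through the 0.1 FPKM added to each value. Ratios here are differences of log2(FPKM + 0.1), so those of low genes depend on the added value most. Among the 21 pairs of the 7 reductases, the log2 ratio did not overlap between the genotypes for 7 pairs, which include all 6 pairs with *Akr7a5* and the pair of *Akr1b8* and *Akr1c14*. Over the whole table, the ratio did not overlap for 30.8% of all pairs of tested genes and for 69.7% of the pairs of *Akr7a5* with any other tested gene. *Akr1e1* and *Akr7a5*, the pair with the widest difference, was picked after its values were seen. Their log2 ratio was 0.61, 0.20 and 0.081 in WT replicates 1, 7 and 8, so *Akr1e1* had the higher FPKM in every WT library. It was -0.95, -1.36 and -0.58 in KO replicates 1, 7 and 8, so *Akr7a5* had the higher FPKM in every KO library. The difference of -1.26 on the log2 scale (exact permutation test, two-sided, p = 0.1, unadjusted for the 21 pairs) ranged from -1.45 to -1.06 with each library left out in turn. After correction for GC content the difference was -0.42, and this was the 1 pair of the 21 that still did not overlap, with WT at -0.20 to -0.042 and KO at -0.75 to -0.22. After the same correction 17.3% of all gene pairs did not overlap, and 28.8% of those with *Akr7a5*.

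**Figure D4:**
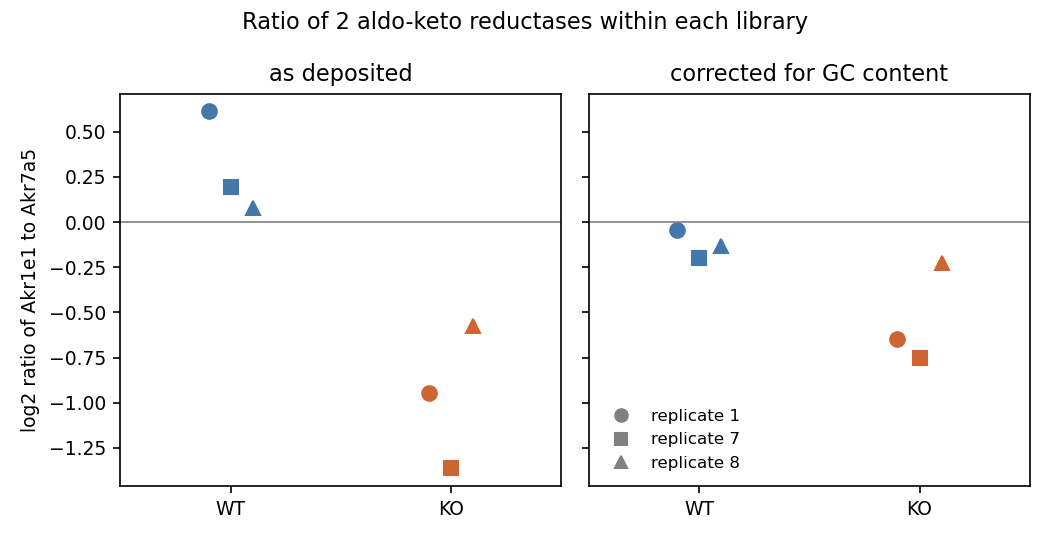
Log2 ratio of *Akr1e1* to *Akr7a5* (y axis) in each WT (blue) and KO (orange) library, on log2(FPKM + 0.1). The FPKM are as deposited (left) and after correction for GC content (right), with symbols for the replicate numbers. As deposited, WT libraries lie above 0 and KO libraries below it. After correction all 6 lie below 0 and KO replicate 8, at -0.22, nearly meets WT replicate 7, at -0.20.

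Among the members with a promoter sequence, that of *Akr7a5* had the highest GC content. RefSeq gave a window from 250 bases before to 50 bases after the start for 6 of the 7 genes, not for *Akr1b3*. The windows of *Akr7a5* (GRCm38.p6, chr4:139310494-139310793, plus strand) and *Akr1e1* (chr13:4609115-4609414, minus strand) are shown because their ratio is given above, with no motif marked.
Akr7a5: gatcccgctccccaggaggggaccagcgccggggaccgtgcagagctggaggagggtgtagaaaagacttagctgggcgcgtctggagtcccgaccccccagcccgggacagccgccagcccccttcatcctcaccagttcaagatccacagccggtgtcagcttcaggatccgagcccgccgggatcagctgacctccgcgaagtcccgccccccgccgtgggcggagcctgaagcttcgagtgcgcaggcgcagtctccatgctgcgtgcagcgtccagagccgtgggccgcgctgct
Akr1e1: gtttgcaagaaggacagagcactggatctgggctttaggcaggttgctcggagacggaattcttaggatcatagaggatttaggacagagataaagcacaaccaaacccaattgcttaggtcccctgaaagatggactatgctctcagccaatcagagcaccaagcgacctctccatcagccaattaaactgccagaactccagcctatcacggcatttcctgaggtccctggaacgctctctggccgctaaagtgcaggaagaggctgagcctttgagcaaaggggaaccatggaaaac
*Akr7a5* has 27 CG dinucleotides and 69.3% GC in its window, against 6 and 50.7% in that of *Akr1e1* and medians of 7 and 52.7% over 32851 promoter windows. *Akr1e1* was not set apart, since the windows of *Akr1b8*, *Akr1a1* and *Akr1b10* had 49%, 50% and 51% GC. The window of *Akr1c14* was the lowest, with 2 CG dinucleotides and 39.7% GC. The core of the antioxidant response element, TGACNNNGC on either strand, was in 0 of the 6 windows and in 12.4% of all windows, which says only that these letters are not in these windows.

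The remaining aldo-keto reductases of the table were close to silent in GAS muscle, apart from *Kcnab1*. Of 10 other *Akr* genes, 3 (*Akr1c12*, *Akr1c20* and *Akr1c21*) were listed at 0 in all 6 libraries, and 0 passed the filter on low FPKM. *Akr1c13* was the highest, measured 0.349, 0.0454 and 0.280 FPKM across the WT mice and 0.428, 0.614 and 0.174 FPKM across the KO mice, and it overlapped between the genotypes. The others stayed at 0.0945 FPKM or less. *Kcnab1*, which encodes the Kvβ1 subunit, ranged between 9.86 and 22.4 FPKM, and was under *Akr1b10* in every library. Its log2 fold change was -0.41 (limma, standard error 0.27, adjusted p = 0.370), and -0.19 after correction for GC content. The genotypes overlapped for *Kcnab1*, and its log2 fold change ranged from -0.61 to -0.13 with each library left out in turn. With the 7 members alone ranked by level over all 6 libraries, the ranges of *Akr1a1* and *Akr1b3* overlapped, as did those of *Akr7a5* and *Akr1e1*. The other neighbours among the 7 did not. The gap was narrow between *Akr1c14*, lowest at 1.52 FPKM, and *Akr1b8*, highest at 1.49 FPKM.

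Genes whose pattern over the 6 libraries lay closest to the most abundant reductases were sought by the root mean square difference of centred log2 values. *Dnmt3a* (0.019) and *Tfg* (0.020) were closest to *Akr1a1*, *Ak1* (0.022) and *Bin1* (0.028) to *Akr1b3*, and *Slc25a4* (0.022) and *Mrps27* (0.028) to *Akr1b10*. With 12334 genes and 6 libraries some genes must lie close, so these are a description only.

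No gene listed for NADPH supply was called, which at a share of 0.324% over all tested genes says little about so few genes. Of 14 listed genes 13 were tested. The genotypes overlapped for 11 and did not for 2, beside 34.5% of all tested genes that did not. The log2 fold change was above 0 for 11 of the 13, beside 6294 of all 12334 genes tested, with a median of 0.27. The 2 below 0 were *Me1* at -0.35 (limma, adjusted p = 0.204) and *Nadk2* at -0.24 (limma, adjusted p = 0.283). *Me1* had the highest mean of the list in both genotypes, 161 FPKM in WT and 127 FPKM in KO. After correction for GC content *Me1* was at -0.20 and *Nadk2* at 0.0087. *Pgls*, the lactonase of the pentose phosphate pathway, measured 1.50, 2.39 and 3.78 FPKM across the WT mice and 3.77, 7.56 and 6.86 FPKM across the KO mice, a log2 fold change of 1.25 (limma, standard error 0.37, adjusted p = 0.104). *Pgd*, the next dehydrogenase of that pathway, had a log2 fold change of 0.46 (adjusted p = 0.183), with every KO library above every WT library, and 0.26 without KO replicate 7. The mitochondrial isocitrate dehydrogenase *Idh2* measured 79.1, 59.6 and 31.9 FPKM across the WT mice and 57.4, 165.2 and 152.4 FPKM across the KO mice, a log2 fold change of 1.09 (adjusted p = 0.191) with overlap between the genotypes, and 0.72 without WT replicate 8. After correction for GC content the median of the list was 0.20, and the log2 fold changes of *Pgls*, *Pgd* and *Idh2* were 0.58, 0.37 and 0.70. All 3 genes were highest in KO replicate 7, the library with the highest adipocyte marker sum, and the part of that sum in these values was not tested.

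Other enzymes of carbonyl metabolism were more evenly split. Of 24 listed genes 20 were tested, with a log2 fold change above 0 for 12 and below 0 for 8. The test called 0 of them, beside 0.324% of all tested genes, and their median was 0.078, or 0.13 after correction for GC content. *Aldh2*, the mitochondrial aldehyde dehydrogenase, measured 10.6, 10.4 and 10.6 FPKM across the WT mice and 17.0, 34.7 and 23.3 FPKM across the KO mice. All KO libraries were higher, with a log2 fold change of 1.18 (limma, standard error 0.24, adjusted p = 0.0700), which was 0.80 after correction for GC content. *Aldh7a1*, which oxidizes lysine-derived and lipid aldehydes, had a log2 fold change of 0.39 (adjusted p = 0.148) and no overlap. The alcohol dehydrogenase *Adh1* was at 0.77 (adjusted p = 0.148) with overlap. The adipocyte marker sum given above exceeded all WT libraries in KO replicates 7 and 8 and not in KO replicate 1, and its part in these values was not tested.

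The pathways on either side of aldose reductase and aldehyde reductase showed no called gene, beside 0.324% of all tested genes. In polyol and fructose handling 5 of 7 listed genes were tested, with a log2 fold change above 0 for 3 and below 0 for 2. The median of this list was 0.26, and 0.0062 after correction for GC content. The 2 below 0 were *Sord* at -0.16 (limma, adjusted p = 0.420) and *Fn3krp* at -0.24 (limma, adjusted p = 0.472). After the correction these were -0.17 and -0.14. *Sord* had a mean of 37.5 FPKM in WT and 33.7 FPKM in KO. *Khk*, the ketohexokinase that phosphorylates fructose, had a log2 fold change of 0.55 (limma, adjusted p = 0.157), and 0.0062 after the correction. *Fn3k*, which removes fructosamine from proteins, had 0.26 (adjusted p = 0.200), and *Tkfc*, a triose kinase, 0.37 (adjusted p = 0.329). After the correction these were 0.27 and 0.026, and *Tkfc* was at 0.22 without WT replicate 8. In glucuronate and ascorbate handling 5 of 9 were tested, with a log2 fold change above 0 for 4 and below 0 for 1, and a median of 0.17, or 0.14 after the correction. *Dcxr*, the xylulose reductase, had a log2 fold change of 0.74 (limma, adjusted p = 0.155) with all KO libraries higher, 0.12 after the correction and 0.42 without WT replicate 1. *Cryl1*, a gulonate dehydrogenase, had 0.35 (adjusted p = 0.220), and *Ugp2*, which makes UDP-glucose, had -0.17 (adjusted p = 0.453). After the correction *Cryl1* was at 0.14, and the sign of *Ugp2* turned, to 0.19, as it did under array weights, to 0.023. With each library left out *Ugp2* ranged from -0.29, without KO replicate 8, to -0.082, without WT replicate 1.

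*Nrf2* (listed as *Nfe2l2*) is the transcription factor best known for driving some aldo-keto reductase genes in response to electrophiles. Of 13 listed genes of this factor and its targets 12 were tested, with a log2 fold change above 0 for 7 and below 0 for 5. The test called 0 of them, beside 0.324% of all tested genes, and their median was 0.018, or -0.019 after correction for GC content. *Keap1*, the inhibitor of *Nrf2*, measured 9.29, 10.5 and 11.5 FPKM across the WT mice and 13.4, 14.4 and 14.1 FPKM across the KO mice. Its log2 fold change was 0.42 (limma, adjusted p = 0.0956), which was -0.17 after correction for GC content. *Gsr*, glutathione reductase, measured 14.8, 16.1 and 16.6 FPKM across the WT mice and 12.6, 12.9 and 12.1 FPKM across the KO mice, a log2 fold change of -0.33 (adjusted p = 0.110), and it kept -0.32 after the correction. *Hmox1*, heme oxygenase, had a log2 fold change of 0.42 (adjusted p = 0.154), and 0.20 after the correction. *Nfe2l2* itself had -0.012 (adjusted p = 0.967). The genotypes did not overlap for 7 of the 12 tested genes, 4 with KO above and 3 with KO below WT, beside the 34.5% of all tested genes given above.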

How the data were processed

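RNA-seq libraries of GAS muscle from 3 WT and 3 KO mice were used. The authors mapped reads to GRCm38 with TopHat and deposited FPKM values computed per gene with Cufflinks. Versions and the annotation release are not given in the sources used here, and neither is a batch. FPKM hold no counts, so depth was estimated from genes with 1 transcript of 1500 to 6000 bases, whose low FPKM fell within 0.15 of whole fragments for 90.2% to 95.1% of values. Fragments per gene use the mean transcript length and are approximate, and the counting error given covers counting only.

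Genes averaging 0.5 FPKM or more over the 6 libraries, 12334 in number, entered a limma fit (version 3.58.1, R 4.3.3) with a variance trend. Its scale, log2(FPKM + 0.1), understates the change of low genes, and p-values were adjusted by Benjamini-Hochberg. GC content came from GENCODE vM21 transcripts and was known for 97.2% of tested genes. The correction subtracts each library's loess curve (span 0.3) of its deviation from the mean library. The fit was also run on simulated data, whose changes were larger than those of the reductases and whose genes were detected in every library. That run does not bear on small differences or on genes undetected in some libraries. Members, gene lists and comparisons were chosen with earlier results of these data known. All 7 members were named, and from each list the called genes or otherwise the 3 with the lowest p. *Nfe2l2*, *Akr1c13*, *Me1*, *Nadk2*, *Sord*, *Fn3krp* and the pair of *Akr1e1* and *Akr7a5* were singled out after their values were seen. Of the listed symbols, 5 were found in the table under an older symbol by gene identifier. Nothing states that same-numbered mice share a litter or batch. Each library was counted as 1 mouse, because the paper gives 3 mice per group. At most 1 value was equal between any libraries, which shows only that no column was a copy of another. Sequences came from GENCODE vM21 and RefSeq GRCm38.p6, aligned with Biopython 1.88.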

Additional observations from a re-analysis of the deposited data

How the results depend on the processing

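The number of reductases called stayed at 0 under every alternative run except array weights, where it was 1. Their median log2 fold change kept its sign except under the length correction (-0.045). *Akr7a5*, *Akr1b3* and *Akr1e1* kept their sign under all alternatives that kept the 6 libraries. Signs turned for *Akr1a1* (-0.045), *Akr1b8* (-0.00092) and *Akr1b10* (-0.066) under the length correction, for *Akr1b10* under median scaling (-0.045) and upper quartile scaling (-0.010), and for *Akr1c14* under array weights (0.0059) and GC correction with or without the replicate block (0.25).

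With each library left out in turn, log2 fold changes ranged from 0.67 to 0.96 for *Akr7a5*, -0.66 to -0.30 for *Akr1e1*, -0.029 to 0.22 for *Akr1b3*, -0.028 to 0.095 for *Akr1b10*, 0.027 to 0.12 for *Akr1a1* and the median, 0.029 to 0.30 for *Akr1b8*, and -0.26 to -0.024 for *Akr1c14*, with 0 reductases called. The sign turned for *Akr1b3* without WT replicate 1 and for *Akr1b10* without WT replicate 7, KO replicate 7 or KO replicate 8.

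Over the whole table, 40 genes were called, 11 to 38 with a library left out (38 without WT replicate 8 and 16 or fewer without any other library), 11 with a pseudocount of 1, 20 with no minimum FPKM, 1 without genes listed at 0, 25 under median and 18 under upper quartile scaling, 19 without the variance trend, 3147 with array weights, 14 after GC correction and 19 after length correction. The replicate block gave 13 calls, and 12 with the GC correction. Same-numbered libraries deviated with correlations of -0.080 to 0.034, so the numbers were not taken to pair mice, and the block changed no call of a reductase. Array weights called 4 of the 13 tested genes of the NADPH list, 4 of 20 of the carbonyl list and 4 of 12 of the Nrf2 list. They called 1 of 5 of the polyol list and 0 of 5 of the glucuronate list, beside 25.5% of all tested genes. The cause of these differences was not tested.

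Depth limits *Akr1b8* and *Akr1c14* most, at about 17 to 28 and 47 to 85 fragments per library.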
